A study of Arabidopsis thaliana with 4 samples.

Results

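The transcript response of wild-type Arabidopsis thaliana roots to cadmium was described from the gene models that were listed for the accession Col and reached 1 RPKM or more in at least 1 of its libraries (RPKM, reads per kilobase of model length, scaled to the reads of the library). Of 807 listed models, 769 at 753 loci met this minimum and 38 did not. Just under it lay AT5G54700, at 0.992 RPKM with Cd, and just above it lay FRK1, at 1.02 RPKM with Cd. The list itself holds models whose RPKM differed 2-fold or more between the 2 Col libraries, so the direction of each model is a description of those libraries.

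The Cd-treated seedlings were Col, 5 days old, grown on MS medium and given 150 µM CdSO4 for 6 h. The untreated seedlings were Col of the same age, and the labels do not say whether they too were kept for 6 h after transfer. Cd and any effect of handling or time of harvest therefore cannot be told apart. The ein3eil1 double mutant, mutant for the ethylene pathway transcription factors EIN3 and EIL1, had the same pair of groups and enters here only through the models listed for it. Root tip and primary root are both given as the tissue, and 1 protocol line names shoots beside roots. Each group had 1 library, so no difference has a replicate check. The library totals were worked out from the deposited counts, lengths and RPKM, as 16773595 reads for Col with Cd and 19192279 reads for untreated Col. Ratios are followed by 95% exact counting intervals, which cover counting error only.

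Cadmium is a toxic metal that plants cannot use. It enters root cells through transporters meant for iron, zinc and calcium, binds thiol groups, and is held in the vacuole as complexes with glutathione and phytochelatins. Roots meet it with changes in ion transport, protein folding and cell walls, and at the endodermis the Casparian strip, a band of lignin sealed by CASP proteins, controls what reaches the vascular tissue.

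With Cd, 427 of the 769 models (55.5%) were 2-fold or more higher and 342 (44.5%) were 2-fold or more lower. Set against the 27562 protein-coding loci of the reference annotation, 1.5% of loci had a higher model and 1.16% a lower one. Most ratios were modest: 252 higher and 207 lower models lay between 2-fold and 3-fold, while 49 higher and 23 lower models were past 10-fold. For 217 higher and 180 lower models the whole interval lay past 2-fold. Among lower models 53 reached 100 RPKM in a library, and among higher models 20 did. All members together held 2.01% of the worked-out library total with Cd and 2.79% of that without. The lower models alone held 0.863% with Cd and 2.37% without, and the higher ones 1.15% with Cd and 0.423% without.

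Of the 769 models, 488 (63.5%) were not listed for ein3eil1, 261 of them higher with Cd (53.5%) and 227 lower (46.5%). Absence from that list does not show that a model kept its level in the mutant, because a ratio just short of 2-fold or too few reads would also leave it out. The 281 models listed in both made up 36.5% of the Col models and 29.0% of the 1001 ein3eil1 models. Models absent from the ein3eil1 list had smaller ratios, with medians of 2.55-fold for the higher and 2.51-fold for the lower ones, against 3.01-fold and 3.34-fold for models listed in both. They were also less abundant: the median RPKM in the library where the model was higher was 5.62 for higher and 8.19 for lower models absent from that list, against 10.2 and 18.6 for models listed in both.

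**Figure D1:**
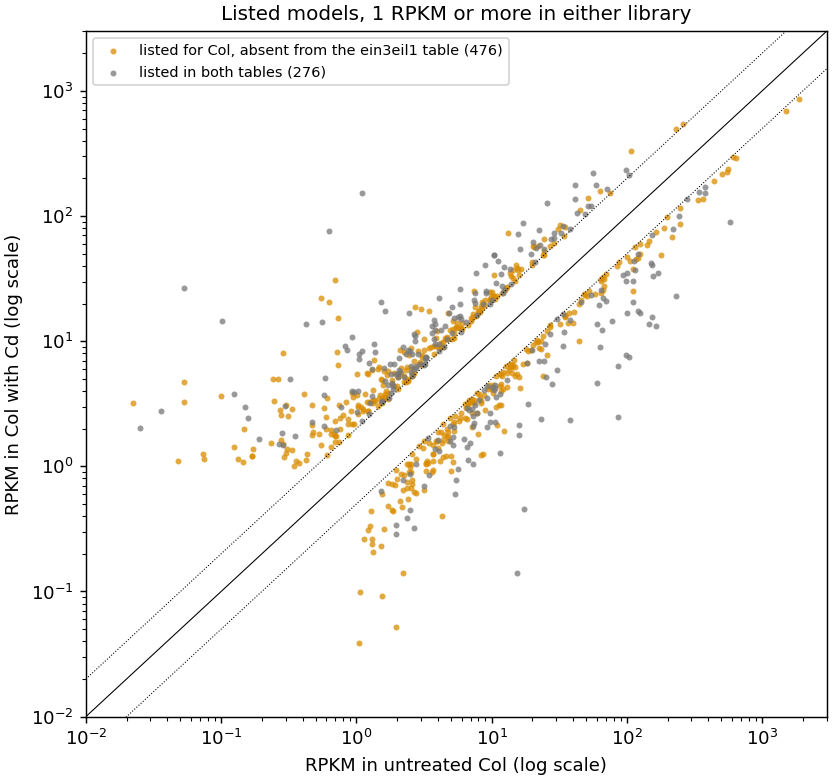
RPKM in Col with Cd (vertical) against RPKM in untreated Col (horizontal), both on log scales, for the listed models with 1 RPKM or more and at least 1 read in each library; orange points are absent from the ein3eil1 list and grey points are in both lists. The solid line marks equal values and the dotted lines 2-fold, which leaves an empty band because the authors listed no smaller ratio.

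The descriptions that accompany the models were sorted into 36 overlapping classes, which took in 611 of the 769 models. The classes were drawn up with the values known, so their counts describe the list. Receptor-like kinases and receptor-like proteins (16 of 17 higher), heat shock proteins and chaperones (14 of 16), ABC and MATE transporters (7 of 8), calcium signalling (7 of 8) and transcription factors (34 of 44) leaned towards higher levels. The UPF0497 family (8 of 8 lower), dormancy-associated and starvation genes (13 of 13 models, at 7 loci), aquaporins (7 of 8), extensins and proline-rich proteins (7 of 9) and terpene and phenylpropanoid enzymes (10 of 13) leaned towards lower levels. The starvation genes DIN2, which was higher, and SEN1, which was lower, are described below and fell outside the dormancy and starvation class. Peroxidases (6 higher, 6 lower), other oxidoreductases (16 and 16) and sulfur and glucosinolate genes (12 and 12) were evenly split at the 1 RPKM minimum. With a minimum of 5 RPKM these 3 classes were not even, at 2 higher and 6 lower, 12 and 8, and 10 and 7. Models of unknown function formed the largest class, with 59 higher and 49 lower. Several of these counts rest on models of low level. With a minimum of 5 RPKM the receptor class kept 8 higher members and 1 lower, ABC and MATE transporters 2 higher and 1 lower, and disease resistance genes 4 higher and 1 lower in place of 8 and 3, while heat shock genes kept 13 higher and 2 lower and dormancy and starvation models 11 lower.

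**Figure D2:**
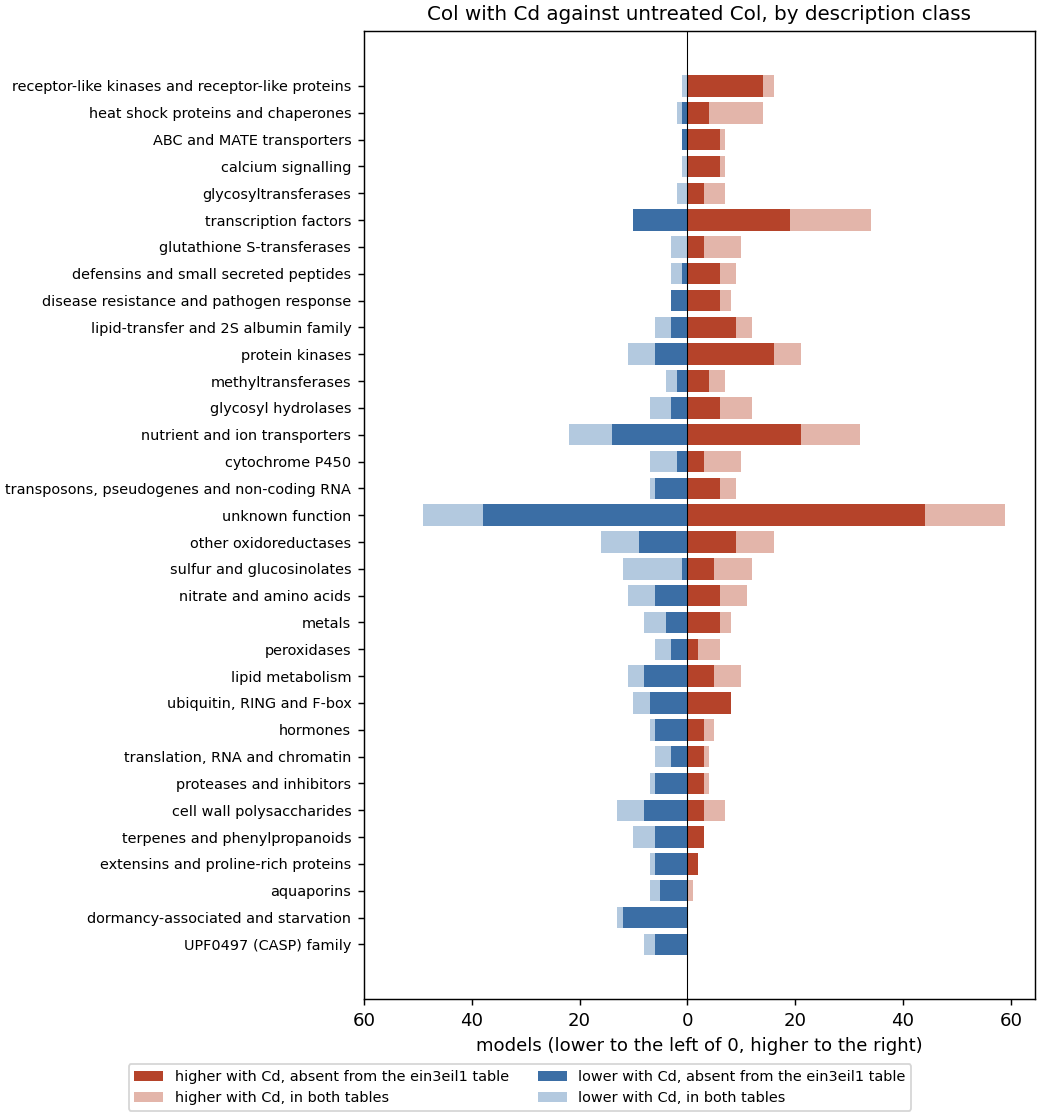
Number of listed models higher with Cd (red, to the right of 0) and lower with Cd (blue, to the left) in each description class of 8 or more models; dark bars are models absent from the ein3eil1 list and pale bars are models in both lists. All 8 models of the UPF0497 family and all 13 of the dormancy and starvation class lie to the left, and 16 of 17 receptor-like models lie to the right. The higher starvation gene DIN2 is counted under glycosyl hydrolases.

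Water channels gave the largest losses in RPKM of the whole list. Of 18 plasma membrane (PIP) and tonoplast (TIP) aquaporin genes looked up, 7 were listed, all lower with Cd, with a median log2 ratio of -1.28. Every listed log2 ratio is 1 or more in size. Medians of sets listed mostly in 1 direction, here and below, are therefore past 1 in size by construction. TIP1;1, a channel of the vacuolar membrane, had 15391 reads with Cd and 37975 reads without, or 866 and 1868 RPKM, a 2.16-fold lower level (2.12 to 2.2). TIP1;2 had 689.9 RPKM with Cd and 1508 RPKM without, and TIP2;2 had 225 RPKM with Cd and 546 RPKM without. The 2 plasma membrane channels with the largest ratios were PIP2;4, at 30.5 RPKM with Cd and 111 RPKM without (3.64-fold lower, 3.32 to 3.99), and PIP1;5, at 67.9 RPKM with Cd and 216 RPKM without (3.18-fold lower, 2.99 to 3.38). TIP2;3 and PIP2;6 were 2.99-fold and 2.36-fold lower. Of these 7 genes PIP2;4 and TIP2;3 were also listed for ein3eil1 and 5 were not. A small aquaporin outside the PIP and TIP groups, SIP2;1, was the single higher member of the class, at 3.66 RPKM with Cd and 1.32 RPKM without.

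Genes of the Casparian strip were listed in one direction. Of 10 genes looked up, 5 were listed, all lower, with a median log2 ratio of -1.36. CASP1, one of the membrane proteins that mark out the strip, had 98.8 RPKM with Cd and 198 RPKM without, 2-fold lower (1.88 to 2.13). CASP2 had 37.4 RPKM with Cd and 115 RPKM without (3.08-fold lower, 2.79 to 3.4), and CASP5 had 27 reads with Cd and 199 without (6.44-fold lower, 4.3 to 10.02). CASP4 was 2.03-fold lower. PER64, a peroxidase that helps to polymerise lignin at the strip, had 43.6 RPKM with Cd and 112 RPKM without. CASP2 and PER64 were lower in ein3eil1 too. In ein3eil1 CASP2 had 751 reads with Cd and 1635 without, and PER64 had 1051 and 2469. CASP1, CASP4 and CASP5 were absent from the ein3eil1 list. The transcription factors that set up the endodermis, SHR, SCR and MYB36, were not listed.

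The same direction held for 3 other members of the UPF0497 family, to which the CASP proteins belong: AT5G44550, AT4G25830 and AT4G20390 were 2.18-fold, 2.68-fold and 2.69-fold lower. All 5 dirigent-like genes were lower, among them AT2G39430 at 30.1 RPKM with Cd and 99.4 RPKM without and AT2G21100 at 3.17 RPKM with Cd and 18.6 RPKM without. Dirigent proteins steer the coupling of lignin and lignan precursors. The laccases LAC2, LAC3 and LAC10, which oxidise such precursors, were 2.54-fold, 2.54-fold and 3.5-fold lower, and PAL4, at the entry of the phenylpropanoid pathway, was 2.28-fold lower. Of 12 suberin genes looked up, FAR4, a fatty acyl-CoA reductase, was the 1 listed, at 37 reads with Cd and 10 without. The other 11 have no value here, so the direction of suberin genes as a set is not known. Since RNA of mixed cell types was sequenced, fewer endodermal cells and less RNA per cell cannot be told apart. Of 24 tissue markers looked up, those listed were all members of the CASP family, and none of the 4 shoot markers was listed.

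**Figure D3:**
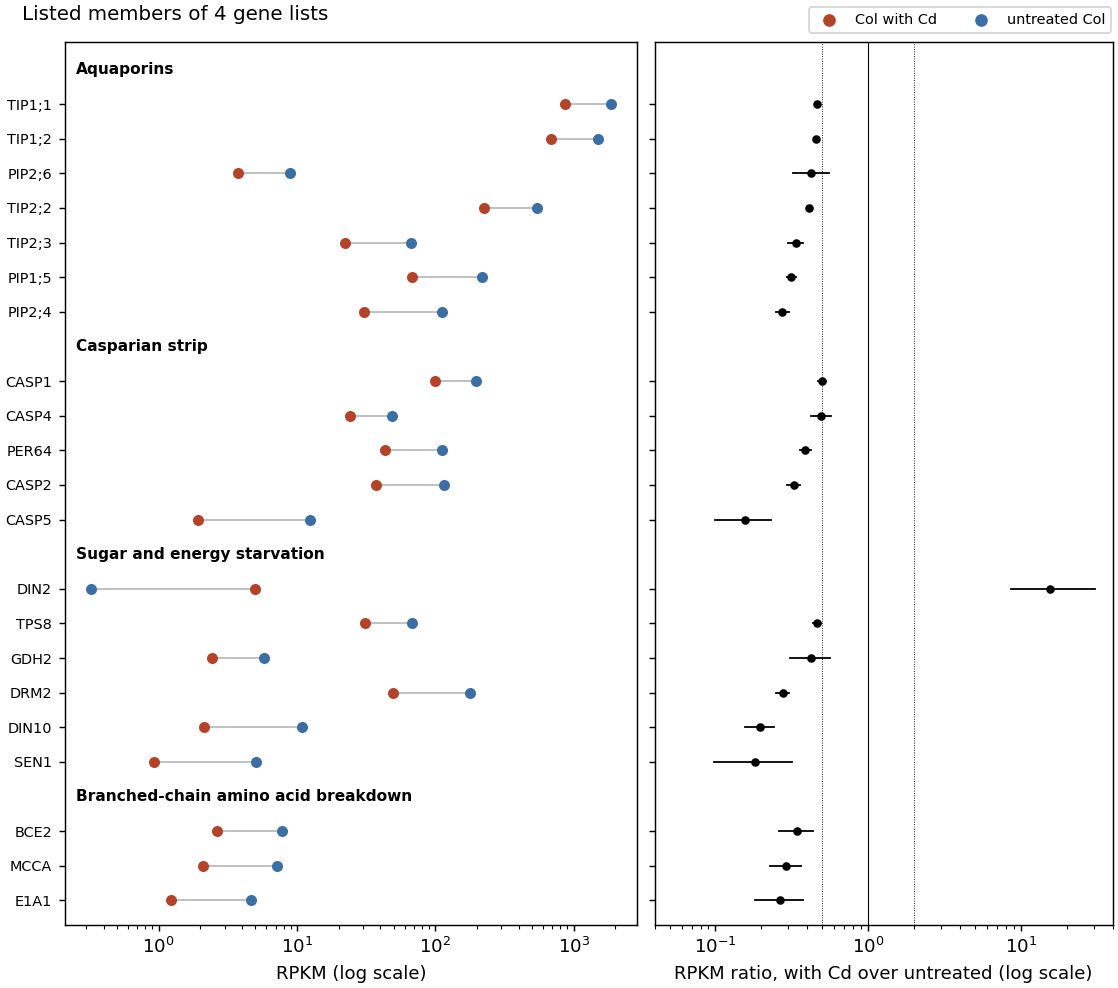
RPKM with Cd (red) and without (blue) for the listed members of 4 gene lists, on a log scale at the left, and the ratio of RPKM with Cd to RPKM without, with its 95% counting interval, at the right; dotted lines mark 2-fold. Every gene shown is lower with Cd except DIN2, which is 15.4-fold higher, and the label DRM2 stands for AT2G33830.

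Genes that plants switch on when sugar or light runs short were lower with Cd. Of 12 such genes looked up, 5 were lower and 1 was higher, with a median log2 ratio of -1.56. The dormancy-associated gene AT2G33830 had 49.2 RPKM with Cd and 179 RPKM without in its main model (3.63-fold lower, 3.31 to 3.99). DIN10, a raffinose synthase family gene induced in the dark, was lower in all 4 of its listed models, by 2.62-fold to 5.13-fold. SEN1, a senescence marker, had 15 reads with Cd and 94 without in its most read model (5.48-fold lower, 3.16 to 10.2). TPS8, a trehalose phosphate synthase of the class repressed by sugar, had 31.2 RPKM with Cd and 67.3 RPKM without. DIN2, a beta-glucosidase of the same list, stood apart at 162 reads with Cd and 12 without, 15.4-fold higher (8.6 to 30.5). It was also higher in ein3eil1. Of the 5 lower genes the model with most reads was in each case absent from the ein3eil1 list, but another model of DIN10, AT5G20250.2, was in it and lower there too, at 27 reads in ein3eil1 with Cd and 88 in untreated ein3eil1.

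Further genes of this kind, named after their values were seen, lay on the same side. DYL1, another dormancy-associated gene, was 2.45-fold lower (2.16 to 2.77), TPS11 was 2.62-fold lower, and ATG8E, which builds autophagosome membranes, was 2.15-fold lower. AT3G15450, described as aluminium induced, had 25.1 RPKM with Cd and 110.4 RPKM without (4.4-fold lower, 3.95 to 4.91). GAT1_2.1, a glutamine amidotransferase-like gene, was 3.57-fold lower (2.75 to 4.7). Among 14 genes of branched-chain amino acid breakdown, which feeds respiration when carbon is short, 3 were listed and all were lower: AT1G21400 by 3.8-fold, MCCA by 3.45-fold and BCE2 by 2.94-fold.

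The promoters of 3 of these lower genes are shown because each holds TATCCA, an element described in promoters of sugar-repressed genes. Of the other lower genes named above, TPS11, ATG8E, MCCA and AT1G21400 also hold it. DIN10, TPS8, DYL1, AT3G15450 and BCE2 do not. The 3 promoters shown run from 250 bases before to 50 bases after the gene's annotated start in RefSeq TAIR10.1, 5′ to 3′ on the gene's strand, with TATCCA in capitals. The search covered both strands, and the match in SEN1 lies after the annotated start. They are SEN1 (chr4:16944628-16944927, plus strand), GAT1_2.1 (chr1:5181353-5181652, minus strand) and AT2G33830 (chr2:14310559-14310858, minus strand).
SEN1: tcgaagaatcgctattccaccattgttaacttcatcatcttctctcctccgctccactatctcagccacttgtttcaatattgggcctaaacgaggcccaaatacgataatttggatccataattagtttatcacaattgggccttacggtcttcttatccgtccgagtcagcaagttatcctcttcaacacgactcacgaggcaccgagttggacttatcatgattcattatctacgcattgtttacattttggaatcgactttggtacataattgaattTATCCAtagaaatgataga
GAT1_2.1: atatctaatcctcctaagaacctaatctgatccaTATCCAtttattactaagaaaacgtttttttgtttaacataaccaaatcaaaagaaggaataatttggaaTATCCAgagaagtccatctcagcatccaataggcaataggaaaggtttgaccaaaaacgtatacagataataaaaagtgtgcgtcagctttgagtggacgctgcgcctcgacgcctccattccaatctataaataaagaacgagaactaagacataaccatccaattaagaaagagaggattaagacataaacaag
AT2G33830: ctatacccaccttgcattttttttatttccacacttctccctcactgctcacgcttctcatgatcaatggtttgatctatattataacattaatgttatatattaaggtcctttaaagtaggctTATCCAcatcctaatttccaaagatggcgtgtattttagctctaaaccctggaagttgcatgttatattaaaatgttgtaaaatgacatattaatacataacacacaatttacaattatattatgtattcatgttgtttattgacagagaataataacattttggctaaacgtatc
TATCCA was found in 22.0% of the 209 promoters of lower genes absent from the ein3eil1 list, in 12.7% of the 251 promoters of higher genes absent from it, and in 16.1% of 27438 promoters of all protein-coding genes. Several motifs were searched, and TATCCA was not the only one with a raised share among these lower genes. The ABRE core ACGTGT was found in 18.2%, 15.1% and 12.4% of the same 3 sets. These shares are descriptions of letters and not of binding.

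Sugar and amino acid transporters had members on both sides within each family. SWEET11 and SWEET12, which let sucrose out of cells, were 2.61-fold and 3.3-fold lower, and SWEET12 had 7.83 RPKM with Cd and 25.8 RPKM without. SWEET13 was 2.4-fold higher, at 84 reads with Cd and 40 without. In the UMAMIT family of amino acid exporters, UMAMIT17 had 10.03 RPKM with Cd and 43.9 RPKM without (4.38-fold lower, 3.81 to 5.05), UMAMIT20 and UMAMIT33 were 3.84-fold and 6.47-fold lower, and UMAMIT26 was 2.02-fold higher. Of 8 models of amino acid importers, 5 were higher and 3 lower. LHT1 and LHT7, named for lysine and histidine transport, were 2.8-fold and 4.24-fold higher and AAP6 was 2.35-fold higher, while AAP3 was 2.16-fold lower. AT5G38820 and AT3G54830, both also in the ein3eil1 list, were 2.88-fold and 6.77-fold lower, the second at 8 reads with Cd and 62 without. None of the SWEET, UMAMIT, LHT and AAP models named was in the ein3eil1 list.

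The listed genes of nitrogen transport were higher with Cd. Of 12 genes of nitrate and ammonium transport and nitrate reduction, 5 were listed, all higher, and the median log2 ratio was 1.67. The 7 that were not listed have no value here. AMT1;2, a high-affinity ammonium transporter, had 112 RPKM with Cd and 45.3 RPKM without (2.47-fold higher, 2.33 to 2.62). The nitrate transporter NRT2.1 had 10564 reads with Cd and 3882 without, the third largest gain in RPKM of the list. Both were absent from the ein3eil1 list. NRT2.4, at 107 reads with Cd and 28 without, and NRT1.8, at 2781 and 927, were higher in ein3eil1 too. In ein3eil1 NRT2.4 had 141 reads with Cd and 50 without, and NRT1.8 had 700 and 157. NRT3.1, the partner protein of NRT2.1, was listed for ein3eil1 in the opposite direction. The reductase genes NIA1, NIA2 and NIR1 were not listed.

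Receptor-like kinases, which sense molecules at the cell surface, were the class with the most uniform direction among the higher models. All 14 of the class members absent from the ein3eil1 list were higher, and the class had a median log2 ratio of 2.02. CRK14, a cysteine-rich receptor-like kinase, had 124 reads with Cd and 1 without (142-fold higher, interval from 25 upwards), and CRK32 had 109 reads with Cd and 2 without. CRK10 had 682 reads with Cd and 114 without (6.85-fold higher, 5.61 to 8.42), and CRK31 had 98 reads with Cd and 22 without (5.1-fold, 3.18 to 8.5). The receptor-like proteins RLP38 and RLP37, which lack a kinase domain, had 319 reads with Cd and 13 without, and 230 with Cd and 49 without. CRK11 was also higher in ein3eil1. The class exception was AT2G15300, a leucine-rich repeat kinase gene, at 3.81 RPKM with Cd and 11.6 RPKM without.

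Several of these genes lie side by side. CRK31 and CRK32 are neighbours on chromosome 4, as are EP1, CRK10 and CRK11, and RLP37 and RLP38 adjoin on chromosome 3. Over the genome, 46 pairs of adjoining loci were both listed, 37 in the same direction (28 both higher, 9 both lower) and 9 in opposite directions. A description was shared by 13 of the 46 pairs, of which 10 shared a direction.

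Disease resistance and pathogen response models were 8 higher and 3 lower, and defensins and small secreted peptides 9 higher and 3 lower. All 5 TIR-type disease resistance genes were higher, with AT1G66090 at 92 reads with Cd and 18 without, and all 7 chitinase genes were higher, by 2.01-fold to 7.59-fold. The precursors of the elicitor peptides PROPEP1 and PROPEP2 were 2.53-fold and 2.15-fold higher, although PROPEP1 was lower in ein3eil1. Of 8 calcium signalling models, 7 were higher: CP1, a calcium-binding protein, had 493 RPKM with Cd and 231 RPKM without, the second largest gain in RPKM, and TCH3, a touch-induced calmodulin-like gene, was 2.72-fold higher.

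Transcription factors leaned towards higher levels, with 34 of 44 higher and a median log2 ratio of 1.16. Of 12 MYB genes 11 were higher, and so were all 5 WRKY genes. NAC036 had 77 reads with Cd and 1 without, MYB2 had 106 with Cd and 26 without, and WRKY45 had 297 with Cd and 156 without. All 10 lower transcription factors were absent from the ein3eil1 list, including the bHLH gene AT2G31730 at 3.21 RPKM with Cd and 8.33 RPKM without, the iron-related factors bHLH39 and MYB10 at 2.33-fold and 3.17-fold lower, and the clock-linked RVE1 at 2.1-fold lower. GIGANTEA, a clock gene, was 2.01-fold higher, at 69.0 RPKM with Cd and 34.3 RPKM without, and 10 of 12 clock genes looked up were not listed.

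**Figure D4:**
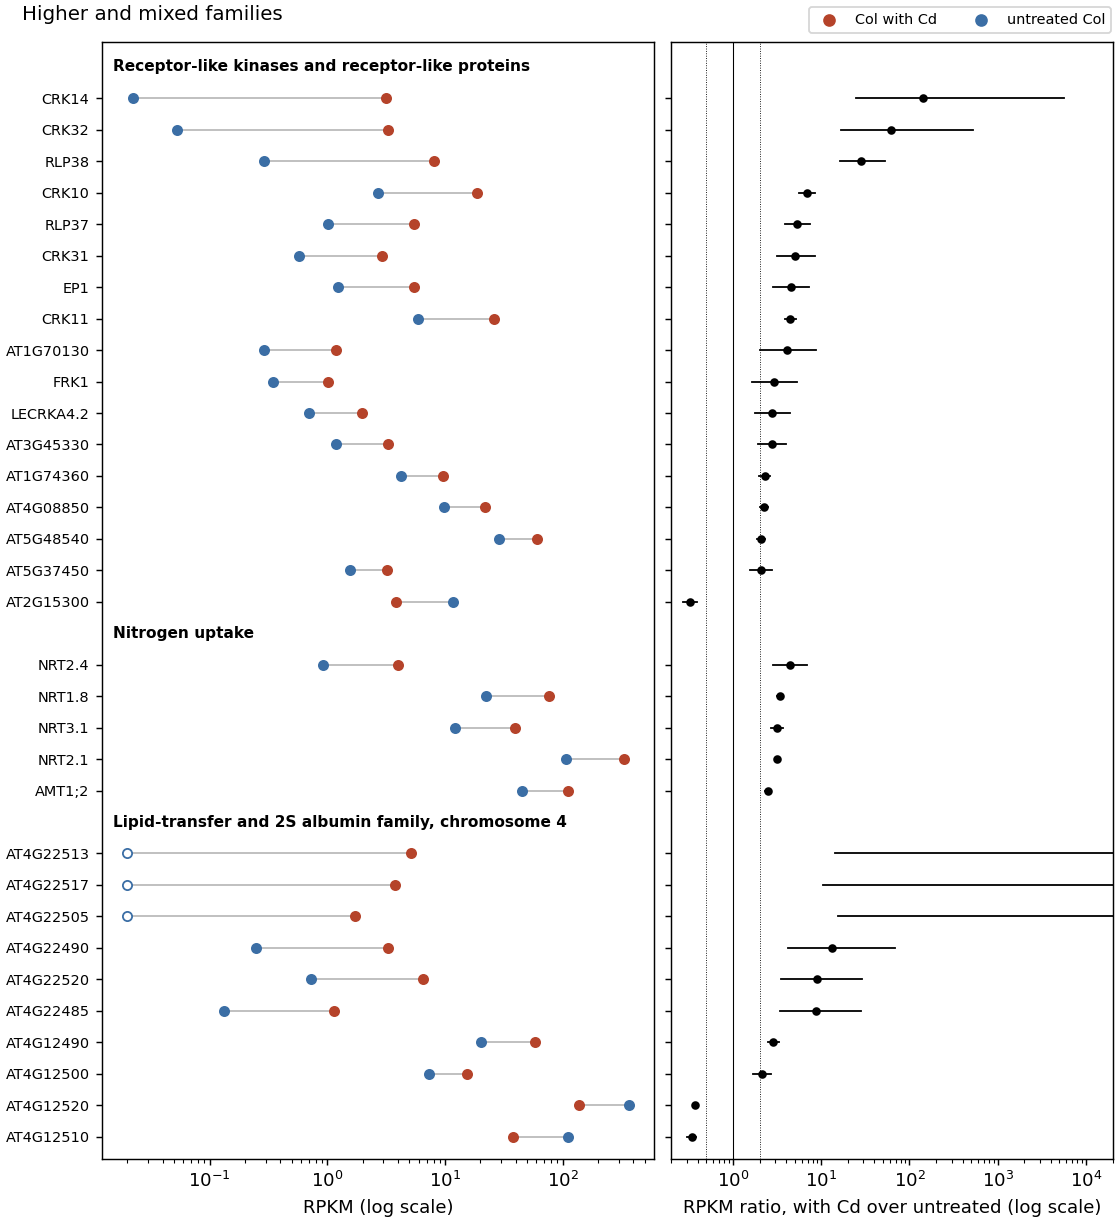
RPKM with Cd (red) and without (blue) for the receptor-like class, the listed nitrogen transport genes (headed nitrogen uptake) and the lipid-transfer family on chromosome 4, on a log scale at the left, with RPKM ratios and 95% counting intervals at the right. Open circles at the left edge stand for 0 reads, where no ratio is drawn and the interval has no upper end; AT4G12510 and AT4G12520 lie left of 1, and their neighbours AT4G12490 and AT4G12500 to its right.

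The lipid-transfer and 2S albumin family, small secreted proteins that bind lipids, was divided, with 12 members higher and 6 lower. On chromosome 4 a run from AT4G22485 to AT4G22520 held 6 higher members. AT4G22513, AT4G22517 and AT4G22505 had 48, 36 and 52 reads with Cd, and each had 0 without, at least 18.3-fold, 13.7-fold and 19.8-fold higher against a floor of 3 reads. In a second run, AT4G12490 had 57.9 RPKM with Cd and 20.2 RPKM without, while AT4G12520 had 137 RPKM with Cd and 365 RPKM without. AT4G12520 is uncertain, since 41.9% of its 50-base windows occur once in the genome.

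Germin-like and cupin genes on chromosome 5 were likewise grouped. AT5G39110 had 250 reads with Cd and 7 without, AT5G39120 had 229 with Cd and 8 without, and AT5G39150 had 66 with Cd and 4 without. Reads may have been shared between these copies, because 81.4% of the windows of AT5G39110, 53.1% of those of AT5G39120 and 12.3% of those of AT5G39150 occur once. At the other end of the list, 6 models had 0 reads with Cd, and 5 of those 6 loci were not iron genes: OLEO1, an oleosin of seed oil bodies, the cupin gene PAP85, the peroxiredoxin gene PER1, the late embryogenesis gene AT3G17520 and AT1G23130, at 17 to 32 reads without Cd. The sixth was model 1 of the iron transporter IRT1, at 84 reads without Cd, at least 24.5-fold lower. The main model of IRT1 was still read with Cd, at 107 reads with Cd and 1579 without (12.9-fold lower, 10.6 to 15.8), and was lower in ein3eil1 too.

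Metal genes were split 8 higher and 8 lower. All 3 heavy metal transport and detoxification genes were higher, by 2.03-fold to 2.91-fold, and all 3 vacuolar iron transporter genes were lower, by 2.01-fold to 2.75-fold. CDT1, named for cadmium tolerance, had 6 reads with Cd and 33 without (4.81-fold lower, 1.99 to 14). The metallothionein gene MT2A had 449 reads with Cd and 1247 without (2.43-fold lower, 2.18 to 2.71). In ein3eil1 it was higher, at 719 reads with Cd and 333 without. The copper/zinc superoxide dismutase CSD1 was the 1 listed gene of 18 in a list of reactive oxygen and copper genes, at 57.4 RPKM with Cd and 22.0 RPKM without (2.6-fold higher, 2.3 to 2.95). MIR408, the precursor locus of a copper-regulated microRNA, was 2.35-fold lower (1.78 to 3.11).

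Among the cell wall genes, 13 of 20 were lower. Pectin methylesterase family members were divided, with AT2G45220 at 63.2 RPKM with Cd and 145 RPKM without and ATPMEPCRB at 38.0 RPKM with Cd and 16.5 RPKM without. EPR1, an extensin-type gene, had 2 reads with Cd and 86 without (37.6-fold lower, 10.09 to 315). ADPG1, a polygalacturonase of organ shedding, had 9 reads with Cd and 39 without.

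The following 4 genes, linked to the secondary walls of xylem and chosen after their values were seen, were lower with Cd. IRX6, a COBRA-like protein needed for cellulose in these walls, had 5.32 RPKM with Cd and 10.8 RPKM without, and GAUT12, which takes part in making wall xylan, had 3.88 RPKM with Cd and 7.83 RPKM without. ACL5, a thermospermine synthase of developing vessels, was 2.55-fold lower (2.17 to 3.01), and MAP70-5, a microtubule protein of wall patterning, was 2.27-fold lower (1.84 to 2.82). All 4 were absent from the ein3eil1 list. The xylem markers XCP1, XCP2, VND7 and IRX3 were not listed.

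The 10 loci classed under hormones were 5 higher with Cd and 5 lower, the lower ones including the dormancy-associated AT1G56220 and AT2G33830. EFE, also called ACO4, the enzyme of the last step of ethylene synthesis, had 79.3 RPKM with Cd and 31.2 RPKM without. The cytokinin-induced response regulator RR5 was 2.19-fold lower, at 254 reads with Cd and 637 without, and CKX3, which degrades cytokinin, was 2.28-fold lower. Among peptide precursors CLE12 and PSK5 were 2.02-fold and 2.05-fold higher, while CLE4 and PSK4 were both 2.22-fold lower. PSK4, the only one of these 4 peptide genes also in the ein3eil1 list, had 171 RPKM with Cd and 379.9 RPKM without.

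Of the detoxification enzymes, glutathione S-transferases were 10 higher and 3 lower, glycosyltransferases 7 and 2, and cytochrome P450 models 10 and 7. Most were in both lists: 3 of 13, 3 of 9 and 5 of 17 were absent from the ein3eil1 list, against 63.5% of all models. Among those absent, all 3 glutathione S-transferases and all 3 glycosyltransferases were higher, as were 3 of 5 cytochrome P450 models. GSTF7, a glutathione S-transferase, had 157 RPKM with Cd and 63.3 RPKM without (2.48-fold higher, 2.31 to 2.67), and the tau class gene GSTU19 gave the largest gain in RPKM of the list, at 547 RPKM with Cd and 262 RPKM without. The neighbouring genes CYP710A3 and CYP710A4, of a sterol desaturase family, were 3.53-fold and 4.2-fold higher, and the glucosyltransferases UGT73B2 and UGT72E3 were 2.26-fold and 2.07-fold higher. GRX480, a glutaredoxin, was 2.44-fold higher, and MSRB8, which repairs oxidised methionine, was 4.28-fold higher (2.97 to 6.29). For CYP710A3, CYP710A4 and MSRB8, 80.6%, 82.1% and 83.9% of 50-base windows of the gene occur once in the genome, so reads of close relatives can enter these counts. Of the heat shock genes, AT1G53540, a small heat shock protein gene, had 89 reads with Cd and 9 without, and it and Hsp70b, at 356 reads with Cd and 175 without, were absent from the ein3eil1 list.

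Of 12 peroxidase models, 6 were higher and 6 lower. With a minimum of 5 RPKM, 2 were higher and 6 lower. AT5G19890, at 297 RPKM with Cd and 608 RPKM without, was 2.05-fold lower (1.99 to 2.11), and AT4G16270 was 6.89-fold lower (4.53 to 10.9). The gene beside AT5G19890 on chromosome 5, AT5G19880, had 30 reads with Cd and 0 without, at least 11.4-fold higher against the floor of 3 reads, and was higher in the ein3eil1 list too.

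Large losses without a class lead included STY46, an ACT-domain kinase gene, at 135 RPKM with Cd and 339 RPKM without, and AT5G14120, a major facilitator gene, at 86.0 RPKM with Cd and 248 RPKM without. AT5G57887, of unknown function, had 215 RPKM with Cd and 506 RPKM without. Of the 10 largest losses in RPKM 9 were absent from the ein3eil1 list, against 3 of the 10 largest gains. Over all 769 models the absent share was 63.5%. The 9 absent losses were 2.05-fold to 2.66-fold and the 3 absent gains 2.09-fold to 3.11-fold. Many of these lie near the 2-fold limit, so a slightly smaller ratio in ein3eil1 would leave such a model out of its list.

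Models without a known function included some of the largest ratios, and 65 of the 85 described only as an unknown protein were absent from the ein3eil1 list. AT1G21520 had 163 reads with Cd and 9 without (20.7-fold higher, 10.7 to 46.1), and AT1G24145 had 32 reads with Cd and 1 without. The promoter of AT1G21520 (chr1:7534878-7535177, minus strand, RefSeq TAIR10.1) is shown because it holds 3 matches, 2 of them overlapping, to ATGTAT, the core of the sequence bound by EIN3. Capitals mark the matches on either strand.
AT1G21520: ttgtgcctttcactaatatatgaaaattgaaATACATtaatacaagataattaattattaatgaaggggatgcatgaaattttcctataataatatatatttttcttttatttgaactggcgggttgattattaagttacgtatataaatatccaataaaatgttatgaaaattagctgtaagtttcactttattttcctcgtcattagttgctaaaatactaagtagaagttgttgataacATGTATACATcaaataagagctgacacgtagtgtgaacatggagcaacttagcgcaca
ATGTAT was found in 34.7% of the promoters of higher genes absent from the ein3eil1 list, in 31.1% of the promoters of lower ones and in 26.1% of all promoters. The share among all higher genes, those also in the ein3eil1 list included, was 36.5%, so the match was not more frequent in the genes absent from that list. Mean GC content was 31.4%, 31.5% and 32.2% in the same 3 sets, and its part in these shares was not tested. TTGACC, 1 form of the W-box bound by WRKY factors and the only form searched, was found in 19.1% of the first set, 14.4% of the second and 14.2% of all promoters. Among other motifs searched, the heat shock element pair GAANNTTC was found in 15.5%, 9.57% and 11.6% of these sets. The TGA factor core TGACG was found in 28.7%, 26.3% and 23.1%, and the G-box CACGTG in 6.77%, 9.57% and 7.68%.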

How the data were processed

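Per the labels' protocols, random-primed cDNA of root RNA was read on an Illumina instrument, and those protocols name root tips in one place and shoots and roots in another. None of build, aligner, read counter or strandedness is given in the sources used here. Per the file headers, the table that the authors deposited for each genotype gives whole read counts, RPKM, a log2 ratio, a p-value and an FDR for each listed model. Tested on the files, the deposited RPKM is the read count over model length and 1 total per library, a 0 count is entered as 0.001 RPKM, and every listed log2 ratio is 1 or more in size with an FDR of 0.000967 or less. The authors' p-values compare the reads of 2 libraries, not conditions, and are not used.

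Ratios of deposited RPKM were computed without a pseudocount, Cd over untreated, with exact Clopper-Pearson intervals of the share of reads at a 95% level. With 1 library per group no test was made. A fold against 0 reads used a floor of 3 reads in that library, or 0.156 RPM untreated and 0.179 RPM with Cd. Intervals cover counting error only, as amplified reads are not independent molecules. The steps were tested on simulated data. Names, transcripts per locus, repeated 50-base windows and promoters came from RefSeq TAIR10.1, in which 806 of 807 models matched and 796 lay within 200 bases. Models of 1 locus, near-identical copies and overlapping genes can have shared reads.

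The members, classes and gene lists were chosen with earlier results of these data known. The lists for the clock, branched-chain amino acid breakdown and iron uptake were added after their values were seen. Genes named were the 15 highest and 15 lowest ratios at 10 RPKM or more absent from the ein3eil1 table, the 10 largest gains and losses in RPKM, class examples at 5 RPKM or more, and listed members of the gene lists. Others (among them those below 5 RPKM, neighbours and family members) were chosen after their values were seen, and not every gene the rule allows is printed. The result of 1 gene is not reported here, and it was left out of its list and plot. Lists without further mention had 2 of 14 unfolded protein response genes higher, 1 of 6 alternative respiration genes higher, and 5 of 12 iron uptake genes lower with 1 higher. Alternatives were another minimum, a pseudocount, 4-fold, a stricter FDR, loci, 1-transcript loci and non-repeated loci. The work used SciPy 1.17.1 and pandas 2.3.3 with numpy 2.4.6 under Python 3.11.15, and matplotlib 3.10.9 for plots.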

Additional observations from a re-analysis of the deposited data

Results flagged for a closer look

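In 27 models listed in both tables the direction with Cd was opposite in Col and ein3eil1. With 1 library per group the difference was not tested. In Col, 18 of them were higher and 9 were lower. Among those described above, NRT3.1, SIP2;1 and PROPEP1 were higher in Col and lower in ein3eil1.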

How the results depend on the processing

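Counts moved most with the threshold. At 5 RPKM 273 models were higher, and 287 models were absent from the ein3eil1 table. At 4-fold there were 117 higher, 85 lower and 100 absent models, by construction of a stricter threshold, and a pseudocount of 1 left 284 higher. At loci with 1 reference transcript 304 of the 488 absent models remained. With no minimum, an FDR of 1e-05 or less, whole loci, or loci whose windows occur once, the counts stayed within 1.5 times. Of the class counts 115 stayed within 1.5 times and 29 did not, mostly at 5 RPKM. With a pseudocount of 1, 43 named ratios stayed within their intervals, 6 did not and 0 changed direction. No paired analysis was possible because each group has 1 library. Depth limits the ratios of models with few reads in 1 library, such as CRK14 and NAC036.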
